A study of Homo sapiens with 12 samples.

Results

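In A375 cells, an established human melanoma line, polysome-associated RNA was set against total RNA after 24 h of interferon-gamma (IFNg) with 2 h of silvestrol. The comparison uses 4 of the 12 arrays, the 2 titled as polysomal and the 2 titled as total RNA of that treatment, and every transcript cluster on them was compared. The remaining 8 arrays hold both RNA fractions, 2 arrays each, of cells given DMSO for 2 h and of cells given IFNg for 24 h, and they serve here as comparison. Every silvestrol culture also received IFNg, no group had silvestrol alone, and the labels state a vehicle for the DMSO cultures only. They do not say that replicates are separate cultures, so each p-value measures the spread between these samples, which may be technical. The array groups probes of a locus into a transcript cluster, with 1 intensity per array that is given here as log2.

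Polysomes are mRNAs that carry several ribosomes, so a transcript's level in polysomal RNA relative to total RNA is a common measure of how actively it is translated. Silvestrol is a plant compound that inhibits eIF4A, the RNA helicase that unwinds the start of an mRNA so that the small ribosomal subunit can load. IFNg is a cytokine that signals through JAK kinases, and in melanoma cells it raises antigen presentation genes, guanylate-binding proteins and the immune checkpoint ligand PD-L1. Both fractions were measured as intensities in a population of cells. Fewer cells with a transcript on polysomes and less of it on polysomes per cell cannot be told apart, and the amount of RNA recovered from each fraction is not given in the sources used here.

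The table held 65535 clusters, on chromosomes 1 to 8 and part of 9, of which 16130 had exactly 1 gene symbol. A cluster is called bright where its log2 intensity averaged 7 or more across all 12 arrays, which 7808 did, 11.9% of the table. The 2 total arrays of the silvestrol cultures correlated with r = 0.981 over all clusters and the 2 polysomal arrays with r = 0.977. Their mean intensities lay between 1558 and 1674. Of the cell type markers looked for, MITF, the master regulator of melanocytes, was bright at 12.83 and 13.40 in total RNA of these cultures. MLANA and TYRP1, melanocyte differentiation genes that A375 is known to express weakly, were not bright, with means over the 12 arrays of 5.89 and 5.35. Fibroblast COL1A2 (means of 6.53 and 5.50 for its 2 clusters) and leukocyte PTPRC and CD14 (4.77 and 4.89) were not bright either, and none of these markers passed the test between fractions.

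Under silvestrol, 326 clusters were higher in polysomal than in total RNA and 426 were lower, in limma with Benjamini-Hochberg adjustment below 0.05 over all clusters (n = 2 arrays a fraction). These calls are 0.497% and 0.65% of the clusters tested. The largest protein-coding differences towards polysomes among bright clusters with 1 symbol were those of DALRD3, WRAP73, AKR7A2 and HECTD3, and those in the opposite direction were those of GULP1, TRA2A, CLSPN and RFTN2. Of the bright clusters, 244 (3.12%) were higher and 332 (4.25%) lower, so 74.8% and 77.9% of the calls fell among them. All called differences exceeded 2-fold, 99 of those higher and 89 of those lower exceeded 4-fold, and the most extreme reached 3.61 and -3.82 on the log2 scale, where 1 unit is a doubling and the median standard error was 0.31. In every called cluster the 2 polysomal arrays lay on one side of both total arrays. That separation alone was common, since 21.9% of all clusters had both polysomal arrays above both total arrays and 20.5% had both below.

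Nearly all calls were lost when any of the 4 arrays but the second polysomal one was left out, and leaving out that one reduced them. The calls also depended on the spread being estimated from all 12 arrays. Without the first or the second total array of the silvestrol cultures, 0 and 0 clusters were called higher and 0 and 1 lower. Without the first polysomal array 1 was called higher and 3 lower, and without the second 223 and 174. A fit of only these 4 arrays called none in either direction, with a lowest adjusted p of 0.0535 in limma, 3858 clusters higher and 4293 lower at an unadjusted p below 0.05, and 499 and 653 at an adjusted p below 0.1. With 1 of the 4 arrays left out, the median over the 326 lay between 1.61 and 1.98 and that over the 426 between -1.78 and -1.62, although these clusters were chosen on the same arrays. The first polysomal array stood farther from the total arrays than the second: the SD of its differences from them over the bright clusters was 0.963 and 1.07, against 0.861 and 0.881.

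Calls in both directions were found from moderate to high intensity, as the plot of differences by level shows. Between a mean log2 of 7 and 10, 83 of 4091 clusters were higher (2.03%) and 138 lower (3.37%). Between 10 and 13 the counts were 110 (4.76%) and 125 (5.41%) of 2311. At 13 and above, 51 of 1406 were higher (3.63%) and 69 lower (4.91%). Among the 46915 clusters below 5, where a level is not separated from background, 36 were higher (0.0767%) and 31 lower (0.0661%). Over all clusters the shares were 0.497% and 0.65%, so the share called differed with level. The median difference of all clusters was 0.02 and that of the bright ones -0.22, so a bright cluster at 0 stood above the bright median. Centring each array on its bright clusters moved the median of all clusters to 0.22, and the calls then read 577 higher and 288 lower: 66.7% of calls were higher in place of 43.4%. Quantile normalization gave 381 and 327, of which 53.8% were higher. Which scaling is right cannot be told from these values, so the balance between directions is uncertain.

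The 10 named clusters that were lowest in polysomal RNA hold 8 protein-coding genes and 2 long noncoding RNAs. TRA2A, a splicing regulator with arginine-serine repeats, read 12.02 and 11.70 in total RNA and 9.39 and 9.14 in polysomal RNA, a difference of -2.59 (SE 0.31, limma adjusted p = 0.00785, 6.01-fold lower). CLSPN encodes claspin, which relays DNA replication stress to the checkpoint kinase CHK1, and it read 11.50 and 12.21 in total against 9.38 and 9.26 in polysomal RNA (-2.53, SE 0.40, limma adjusted p = 0.0139). SGO1, the shugoshin that protects cohesin at centromeres until anaphase, read 10.57 and 11.09 against 8.40 and 8.66 (-2.30, SE 0.41, limma adjusted p = 0.0205). The fractions of these genes did not overlap, and the gap between fractions was wider than the distance between the arrays of either fraction. ANP32E, a chaperone that removes the histone variant H2A.Z, read 10.15 and 10.40 in total and 7.44 and 8.35 in polysomal RNA (-2.38, SE 0.36, limma adjusted p = 0.0130).

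GULP1, an adaptor for the engulfment of dying cells, read 11.67 and 12.34 in total and 9.09 and 9.05 in polysomal RNA, a 7.64-fold lower level (-2.93, SE 0.36, limma adjusted p = 0.00785). PIK3CB, the beta catalytic subunit of PI3-kinase, read 11.02 and 11.06 against 8.04 and 9.10 (-2.47, SE 0.45, limma adjusted p = 0.0221). Its 2 polysomal arrays were more than 1 log2 unit apart, and 2 further clusters with this symbol differed by -1.43 (limma adjusted p = 0.183) and -0.19 (0.852), neither past the threshold. FEM1C, the substrate receptor of a cullin-2 ubiquitin ligase, read 12.60 and 12.45 against 9.98 and 10.37 (-2.35, SE 0.34, limma adjusted p = 0.0120), and a second, dimmer cluster of it did not pass (0.60, limma adjusted p = 0.789). RFTN2, a lipid raft protein, had the widest scatter, with 8.61 and 9.23 in total and 5.69 and 7.20 in polysomal RNA (-2.47, SE 0.51, limma adjusted p = 0.0392). The remaining pair are long noncoding RNAs. LINC01293 read 10.85 and 10.97 in total and 7.86 and 7.52 in polysomal RNA, the largest named difference downwards (-3.22, SE 0.32, limma adjusted p = 0.00733), and LINC01239 read 9.62 and 9.99 against 6.85 and 7.87 (-2.44, SE 0.34, limma adjusted p = 0.0104).

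The 10 named clusters that were highest in polysomal RNA hold 7 protein-coding genes. ALDH4A1, the mitochondrial dehydrogenase that completes proline breakdown, read 6.55 and 6.99 in total and 9.61 and 9.19 in polysomal RNA (2.63, SE 0.29, limma adjusted p = 0.00785). AKR7A2, an aldo-keto reductase that detoxifies aldehydes, read 9.61 and 9.47 against 12.84 and 11.76 (2.76, SE 0.37, limma adjusted p = 0.00899). GPAA1, a subunit of the transamidase that attaches GPI anchors to proteins in the endoplasmic reticulum, read 13.02 and 12.87 against 15.97 and 15.12, a 6.07-fold higher level (2.60, SE 0.34, limma adjusted p = 0.00899). The total arrays of these genes lay close together, whereas the polysomal arrays of AKR7A2 were about 1 unit apart, the first being the higher. LEMD2, a protein of the inner nuclear membrane, read 10.13 and 10.22 in total and 13.05 and 12.53 in polysomal RNA (2.62, SE 0.32, limma adjusted p = 0.00785).

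DALRD3, which takes part in methylation of arginine tRNAs, read 10.06 and 10.48 in total and 13.30 and 13.41 in polysomal RNA, 8.48-fold higher (3.08, SE 0.49, limma adjusted p = 0.0139). WRAP73, a protein of centrioles and spindle poles, read 9.36 and 9.04 against 12.73 and 11.74 (3.04, SE 0.35, limma adjusted p = 0.00785). HECTD3, a HECT-type ubiquitin ligase, read 9.52 and 9.34 against 12.15 and 11.98 (2.64, SE 0.46, limma adjusted p = 0.0187). In each of these genes the lowest polysomal array lay more than 2 units above the highest total array. The other 3 named clusters are not protein coding. ALG1L15P, a pseudogene, read 8.58 and 8.01 in total and 11.57 and 11.18 in polysomal RNA (3.08, SE 0.31, limma adjusted p = 0.00733). SNORD63, a C/D box small nucleolar RNA, read 9.45 and 9.21 against 12.32 and 12.52 (3.09, SE 0.60, limma adjusted p = 0.0294), but 2 other clusters with the symbol differed by 0.04 and -0.89 and did not pass. RNU6-180P, a copy of the U6 spliceosomal RNA gene, read 8.66 and 9.59 against 13.13 and 12.35, the largest difference upwards (3.61, SE 0.46, limma adjusted p = 0.00800); U6 copies are near-identical, so which copy the signal comes from is uncertain.

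**Figure D1:**
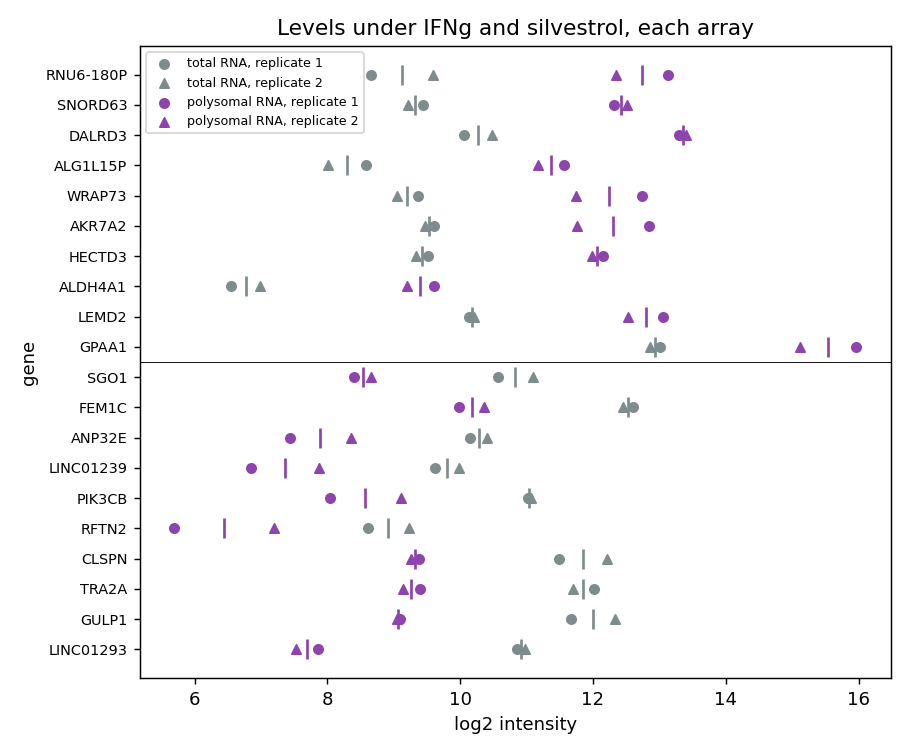
Log2 intensity (horizontal axis) of the 20 named genes on the 4 silvestrol arrays; circles are replicate 1 and triangles replicate 2, with a colour for each fraction. The rule that chose the 20 genes required fractions that do not overlap, and they run from LINC01293 (10.85 and 10.97 against 7.86 and 7.52) to RNU6-180P (8.66 and 9.59 against 13.13 and 12.35).

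In the DMSO and IFNg arrays the same 20 genes pointed the same way, apart from SNORD63 and RNU6-180P under IFNg (-0.41 and -0.39, neither past the threshold). Under DMSO, ALDH4A1 alone of them passed (1.86, limma adjusted p = 0.0388). Under IFNg, LINC01293 (-2.14) and GULP1 (-1.95) were lower, and LEMD2 (1.92), WRAP73 (1.93) and ALG1L15P (1.61) higher, all past the threshold. The difference between treatments was tested for each gene as an interaction, and none passed. The nearest was RNU6-180P against IFNg, at a limma adjusted p of 0.115. TRA2A differed by -2.59 under silvestrol, -0.20 under DMSO and -1.38 under IFNg, and its interactions had limma adjusted p = 0.672 against DMSO and 0.633 against IFNg.

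Among genes of the IFNg response, TAP1, TAP2 and HLA-C, all parts of class I antigen presentation, were higher in polysomal RNA. Of 20 listed interferon response genes, 17 were measured, each by 1 cluster. Of these, 3 were higher in polysomal RNA, none lower, and 14 did not pass, so 17.6% were called higher beside 0.497% of all clusters and 3.12% of bright ones. The list's median was 0.47 beside 0.02 for all clusters and -0.22 for bright ones. TAP1 and TAP2 form the transporter that carries peptides into the endoplasmic reticulum for loading. TAP1 read 15.23 and 15.16 in total and 16.95 and 16.62 in polysomal RNA (1.59, SE 0.26, limma adjusted p = 0.0148), and TAP2 read 13.05 and 13.02 against 14.75 and 14.50 (1.59, SE 0.31, limma adjusted p = 0.0303). HLA-C, a heavy chain of class I molecules, read 14.62 and 14.83 against 16.46 and 16.38 (1.70, SE 0.31, limma adjusted p = 0.0211). In all 3 genes the gap between fractions exceeded 1 unit and the arrays of each fraction lay closer together than that. The calls of TAP2 and HLA-C ended without any of the 4 arrays and that of TAP1 without any but the second polysomal array (limma adjusted p = 0.0400 without it). With an intensity trend in the variances TAP2 had a limma adjusted p of 0.0525. On the other arrays, HLA-C was higher in polysomal RNA under DMSO (1.93, limma adjusted p = 0.0388) and TAP2 under IFNg (1.48, limma adjusted p = 0.0406), while TAP1 did not pass under either (1.24 and 1.16). The list's median was 0.83 under DMSO and 0.21 under IFNg.

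The other list members did not pass. HLA-B (1.42, limma adjusted p = 0.0831), HLA-E (1.39, limma adjusted p = 0.0802) and the immunoproteasome subunit PSMB8 (1.79, limma adjusted p = 0.106) had values close to those of the called genes. The guanylate-binding proteins, GTPases that attack vacuoles of pathogens, had values below 0, at -1.19 for GBP2, -1.04 for GBP1, -0.88 for GBP5 and -0.61 for GBP4. GBP2 read 16.68 and 16.94 in total and 15.37 and 15.87 in polysomal RNA (limma adjusted p = 0.0735), so its fractions were separate although the call was not reached. IDO1, the tryptophan-degrading enzyme, read 17.81 and 18.61 against 17.90 and 18.82 (0.15), with overlapping fractions. The transcription factor IRF1 and the gene of PD-L1, CD274, had values of 0.47 and 0.51. None of the list passed the interaction of fraction with silvestrol against IFNg or DMSO.

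Clusters raised by IFNg were also chosen from total RNA alone, on the DMSO and IFNg arrays, none of which is a silvestrol array: 188 rose (0.287% of those tested), of which 143 were bright (1.83% of bright clusters), and 16 fell (0.0244%), none of which passed between fractions under silvestrol. Under silvestrol 17 of them were higher in polysomal RNA, 9 lower and 162 did not pass, which is 9.04% and 4.79% of the set beside 0.497% and 0.65% of all clusters. The choice and these calls share each cluster's estimate of spread from all 12 arrays. Clusters of low spread pass both more easily, so the shares called are not independent of the choice. Of the 143 bright members 17 were higher (11.9%, beside 3.12% of bright clusters) and 5 lower (3.50%, beside 4.25%). The median of these bright members was 0.03, with 74 above 0 and 69 below. That of all 188 was -0.07, with 92 above 0 and 96 below. It turned to 0.046 with quantile normalization and to 0.085 with centring on bright clusters. With 1 array left out it lay between -0.23 and 0.18. The medians of the 188 on the DMSO and IFNg arrays, which had chosen them, were 0.61 and -0.30. The members that were higher, named here after their values were seen, include TAPBP (1.56), which encodes tapasin and holds empty class I molecules near the TAP transporter, besides TAP1, TAP2, HLA-C and HLA-G (1.25). They also include CMPK2 (1.75), a mitochondrial nucleotide kinase, MOV10 (1.88), an antiviral RNA helicase, the cytokine receptor chain IL22RA1 (1.65), the potassium-chloride cotransporter SLC12A7 (2.28), ABHD16A (2.07), CLIP2 (1.42) and the HLA pseudogenes HLA-DPB2 (2.25) and HLA-U (1.99). Those lower with a symbol were PARP14 (-1.62), an ADP-ribosyltransferase of the interferon response, NCOA7 (-1.47) and LAP3 (-1.31), a leucine aminopeptidase. The LAP3 cluster was not bright (mean log2 of 6.08), and its polysomal values of 5.71 and 5.90 may be near background. The HLA genes are much alike in sequence, so signal may be shared between them.

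Messenger RNAs with a terminal oligopyrimidine tract, which code for ribosomal proteins and elongation factors and whose translation is controlled as a group through mTOR and LARP1, were close to equal in both fractions. The windows shown hold the 15 bases before and the first 15 bases from the annotated start of genes in this list, written 5′ to 3′, from RefSeq on GRCh38.p14, and the capitals mark the longest pyrimidine run at the start. RPS27, RPL22 and RPL31 are shown because they were called lower in polysomal RNA under IFNg alone, and EEF1A1, elongation factor 1 alpha, because it stayed near 0 under every treatment.
EEF1A1: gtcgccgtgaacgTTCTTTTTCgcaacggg
RPL22: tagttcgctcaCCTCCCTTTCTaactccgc
RPL31: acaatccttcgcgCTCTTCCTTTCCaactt
RPS27: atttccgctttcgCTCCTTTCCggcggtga
They lie at chr6:73521018-73521047 on the minus strand for EEF1A1, chr1:6199581-6199610 on the minus strand for RPL22, chr2:101002274-101002303 on the plus strand for RPL31 and chr1:153990747-153990776 on the plus strand for RPS27. The runs have 9, 11, 12 and 9 bases.

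Of 19 such genes listed, 12 were measured, in 13 clusters, all bright, and none passed the test in either direction under silvestrol. Their differences ran from -0.65 to 0.53 with a median of -0.10, which turned to 0.10 with centring on bright clusters. The lowest came from the RPL5 cluster, which was barely bright (mean log2 of 7.08) and had no RefSeq match. The highest came from an RPL7 cluster on chromosome 1, whereas the other RPL7 cluster, on chromosome 8, had -0.53. Both ends of the range may therefore say little about these mRNAs. EEF1A1 read 19.34 and 19.34 in total and 19.03 and 19.45 in polysomal RNA (-0.10, SE 0.25). RPL31 read 16.09 and 16.23 against 16.03 and 15.90 (-0.20), RPL22 17.09 and 17.31 against 16.79 and 16.80 (-0.41), and RPS27 17.97 and 18.17 against 17.94 and 17.80 (-0.20). The fractions of EEF1A1 overlapped, whereas in the other 3 genes both polysomal arrays lay below both total arrays by a small margin. On the IFNg arrays the median of the 13 clusters was -0.89, and RPL31 (-1.85), RPL22 (-1.76), RPS27 (-1.72) and 1 of 2 clusters of RPL7 (-1.51) were lower past the threshold. On the DMSO arrays the median was -0.07. No cluster of the list passed the interaction of fraction with treatment. The motif sought was a C followed by at least 4 pyrimidines, on the gene's own strand. The C lay at most 3 bases before or after the start. A gene counted where any of its annotated start windows held the motif. That was so for 19.3% of bright protein-coding clusters with a RefSeq window, 17.6% of those higher and 15.6% of those lower. Of all single windows 13.03% held it, a share not directly comparable, since a gene can have several windows.

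Of 7 genes known from other work as sensitive to loss of eIF4A activity, 5 were measured. CCND3, cyclin D3 of the G1 phase, was higher in polysomal RNA, with 10.57 and 11.004 in total and 12.95 and 12.52 in polysomal RNA (1.95, SE 0.35, limma adjusted p = 0.0218). Its second, dim cluster did not pass (0.59, limma adjusted p = 0.485). The bright cluster differed by 1.80 under DMSO and 0.08 under IFNg, neither past the threshold. MYC (0.25), the survival factor MCL1 (-0.14), the kinase PIM1 (1.12) and the cell cycle kinase CDK6 (-0.93) did not pass. The 6 listed core and linker histone genes of chromosome 6, whose mRNAs end in a stem-loop in place of a poly(A) tail, gave values from 0.12 to 1.15 with a median of 0.67, and none passed.

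Bright clusters were also grouped by the letters that open their symbols, for families of at least 20 clusters, chosen after their values were seen. The mitochondrial ribosome, which translates the transcripts of mitochondrial DNA, was among them. Of 36 protein-coding MRPL and MRPS clusters, 4 were higher (11.1%, beside 3.12% of bright clusters), 33 lay above 0, and the median was 0.78. The 4 were MRPS27 (2.26), MRPL15 (1.69), MRPS14 (1.63) and MRPS18B (1.30). Of 27 protein-coding cytoplasmic RPL and RPS clusters, none was called, and the median was -0.04, or 0.15 with centring on bright clusters. The HLA family had all 24 clusters above 0 and a median of 1.05, and 4 were higher (16.7%, beside 3.12% of bright clusters). On the other arrays the mitochondrial group had a median of 0.62 under DMSO and 0.07 under IFNg, and the HLA family had 0.96 and 0.69.

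Families of small RNAs differed from each other. Of 59 copies of U6 RNA, 16 were higher in polysomal RNA (27.1%, beside 3.12% of bright clusters) and none lower, with a median of 1.38, whereas the median was 0.25 under DMSO and -0.31 under IFNg. The 36 clusters of other U-type small nuclear RNAs held no call and had a median of -0.06. Of 39 copies of 5S ribosomal RNA, 6 were higher (15.4%) and 38 lay above 0, with a median of 0.93, beside -0.02 under DMSO and -0.35 under IFNg. In contrast, 77 of 79 copies of 7SL and 7SK RNA, parts of the signal recognition particle and of a transcription regulator, lay below 0 with a median of -0.45 and no call. No member of these families passed an interaction test against IFNg or DMSO, and the copies of each family share sequence, so they do not count as separate measurements.

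Several protein phosphatase genes were lower in polysomal RNA. Of 22 clusters whose symbols open with PPP, 4 were lower and none higher (18.2% beside 4.25% of bright clusters), with a median of -0.81. They were PPP3CA (-1.78), the catalytic subunit of calcineurin, PPP4R3B (-1.68), PPP2CA (-1.60), a catalytic subunit of protein phosphatase 2A, and PPP2R2A (-1.48), a regulatory subunit of the same enzyme. The median of this family was 0.30 under DMSO and -0.13 under IFNg. Among 21 ubiquitin-conjugating enzymes (UBE), UBE2V2 (-1.87) and UBE2H (-1.29) were lower (9.52%, beside 4.25% of bright clusters) and the median was -0.63. Of 30 long intergenic noncoding RNAs 4 were lower (13.3%, beside 4.25% of bright clusters), with a median of -0.91. In the FAM group of 46, 6 were lower, and 4 of these were FAM72A to FAM72D, near-identical copies whose signals cannot be separated. Of 68 TMEM clusters 6 were higher (8.82%, beside 3.12% of bright clusters) and none lower (beside 4.25%). TMEM120A (2.43) and TMEM63A (2.12) were among those higher, while the family's median of 0.01 turned to -0.03 with median centring. Of the families of at least 20 clusters given here or plotted, some changed the sign of their median under another scaling. They were TMEM, the protein-coding RPL and RPS group, and EIF, whose median was -0.05, or 0.15 with centring on bright clusters.

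**Figure D2:**
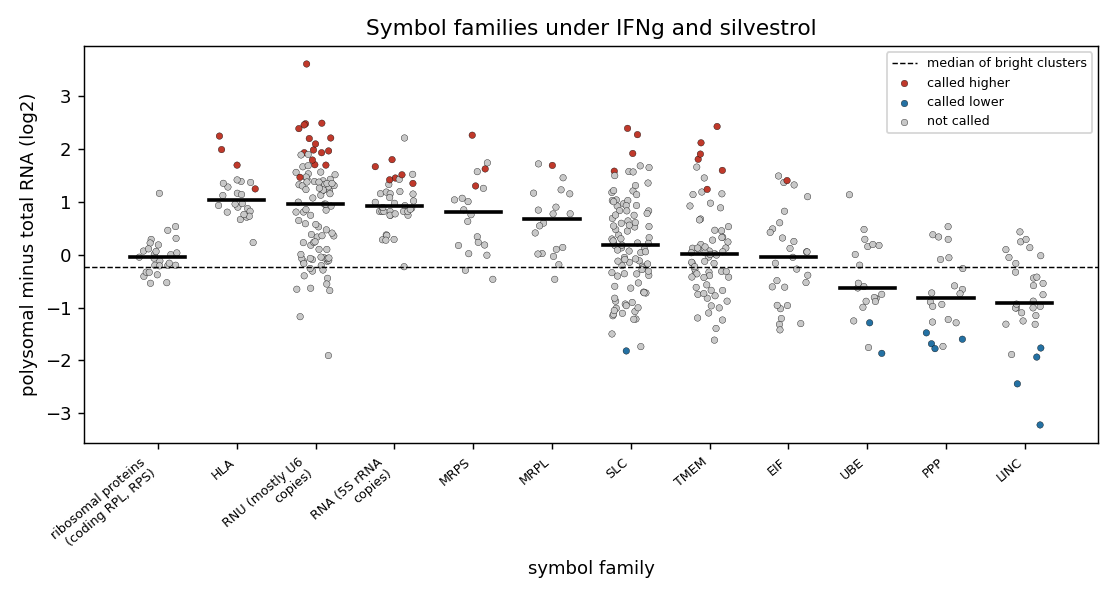
Log2 difference between polysomal and total RNA under IFNg and silvestrol (vertical axis) for the bright clusters of the symbol families named on the horizontal axis; each point is a cluster, coloured where called, and the dashed line is the bright median, -0.22. All 24 HLA clusters lie above 0, and the PPP family (median -0.81) and LINC family (median -0.91) lie mostly below.

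Clusters called between fractions in DMSO or IFNg cells could be followed on the silvestrol arrays, since the 3 comparisons share no array but do share the estimate of spread. DMSO cells had 40 clusters higher in polysomal RNA (0.061% of those tested) and 37 lower (0.0565%), of which 35 and 31 were bright (0.448% and 0.397% of bright clusters). Under silvestrol 0.497% of all clusters and 3.12% of bright ones were higher, and 0.65% and 4.25% were lower. Of the 40, 19 were higher under silvestrol, none lower and 38 above 0, with a median of 1.42. These 19 are 47.5% of the DMSO set and 5.83% of the 326. Of the 37, 19 were lower and all 37 lay below 0, with a median of -1.60; they are 51.4% of that set and 4.46% of the 426. IFNg cells had 118 higher (0.18%) and 687 lower (1.05%), of which 64 and 509 were bright (0.82% and 6.52%). Of the 118, 43 were higher under silvestrol (36.4% of that set, 13.2% of the 326), and the median was 0.97. Of the 687, 134 were lower (19.5%, and 31.5% of the 426), 3 were higher, and the median was -0.86. The sets in the higher direction moved with the arrays that chose them. The median of the DMSO set was 0.055 without the first polysomal DMSO array, 0.46 without the second total DMSO array and 0.77 without either polysomal IFNg array, and no cluster was called without the second polysomal DMSO array. That of the IFNg set was 0.14 and 1.59 without the second and the first total IFNg array, and 0.28 and 0.45 without the first and the second polysomal IFNg array.

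Across the 7808 bright clusters the differences under silvestrol correlated with r = 0.642 with those under DMSO and r = 0.559 with those under IFNg, as a description over clusters, which share their arrays (Spearman's rho 0.627 and 0.564). Differences under DMSO and IFNg correlated with r = 0.379. The spread of differences over bright clusters was 0.87 (SD) under silvestrol, 0.72 under DMSO and 0.85 under IFNg. Of the 65535 clusters tested, those called in the same direction in all 3 treatments numbered 2 higher and 14 lower, by calls that share their estimate of spread. The 2 higher are TMEM214 and TMEM63B, and the single cluster with 1 symbol among the 14 is PRKDC, the catalytic subunit of DNA-dependent protein kinase. PRKDC read 15.45 and 15.004 in total and 13.53 and 13.60 in polysomal RNA under silvestrol (-1.66, SE 0.25, limma adjusted p = 0.0127), and its difference was -3.77 under DMSO and -1.67 under IFNg.

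**Figure D3:**
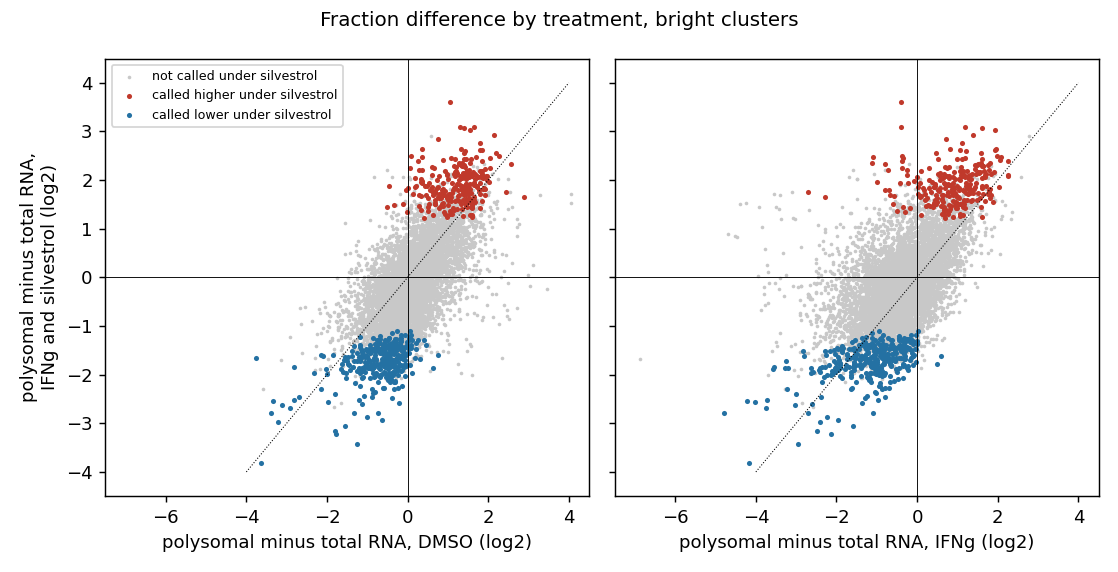
Log2 difference between polysomal and total RNA under IFNg and silvestrol (vertical axes) against the same difference under DMSO and under IFNg (horizontal axes of the 2 panels) for 7808 bright clusters, coloured where called under silvestrol. Called clusters mostly keep their side of 0 in both panels, and the cloud is tighter for DMSO (r = 0.642) than for IFNg (r = 0.559).

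Whether the fraction difference itself changed with silvestrol was tested as an interaction. Against IFNg alone, 12 clusters had a higher polysomal minus total difference under silvestrol (0.0183%, of which 11 were bright, 0.141% of bright clusters) and 0 a lower one, and at an unadjusted p below 0.05 limma gave 2646 and 1639. Against DMSO 0 passed in either direction, with 1696 and 1843 at an unadjusted p below 0.05. RMRP, the RNA of the RNase MRP ribonucleoprotein that processes ribosomal RNA precursors, is the single named cluster of the 12 and is described for that reason. It read 11.22 and 11.31 in total and 10.55 and 8.63 in polysomal RNA under silvestrol, a difference of -1.68 that did not pass (SE 0.48, limma adjusted p = 0.135). Under IFNg alone it read 12.001 and 12.70 in total and 5.29 and 5.69 in polysomal RNA, a difference of -6.86. Those polysomal values lie under the bright bound and may be near background, for which no detection call was given, so the sizes of this difference and of the interaction are uncertain. The interaction was 5.19 (SE 0.68, limma adjusted p = 0.0262), while under DMSO the levels were 9.26 and 9.27 in total and 7.06 and 7.50 in polysomal RNA, a difference of -1.98 and an interaction of 0.31. That count of 12 became 0 without the first total or the first polysomal silvestrol array, 2 without the second total array, 1 without the second polysomal array, 7 without the first total IFNg array and 28 without the first polysomal IFNg array. With 16 added to each intensity they became 0.

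Protein-coding genes made up 4048 of the bright clusters, of which 172 (4.25%) were higher and 230 (5.68%) lower. The span of a gene on the genome, from RefSeq, had a median of 39709 bases over these, 17004 bases in those higher and 61256 in those lower. With these genes ranked by span in 5 groups of like size, the median difference under silvestrol went from 0.36 in the shortest, with a median span of 6227 bases, through 0.01, -0.21 and -0.40 to -0.42 in the longest, with a median span of 182344 bases. The share called higher was 8.40% in the shortest and 1.11% in the longest group, and the share called lower was 2.10% and 7.28%. On the DMSO arrays the medians ran from 0.59 to -0.09 and on the IFNg arrays from -0.22 to -0.26. Over genes, the correlation of the difference with log span was r = -0.314 under silvestrol, -0.346 under DMSO and 0.00 under IFNg (n = 4048 clusters, not independent replicates). Of the 2457 bright clusters without a gene symbol, 18 were higher (0.733%, beside 3.12% of bright clusters) and 68 lower (2.77%, beside 4.25%).

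**Figure D4:**
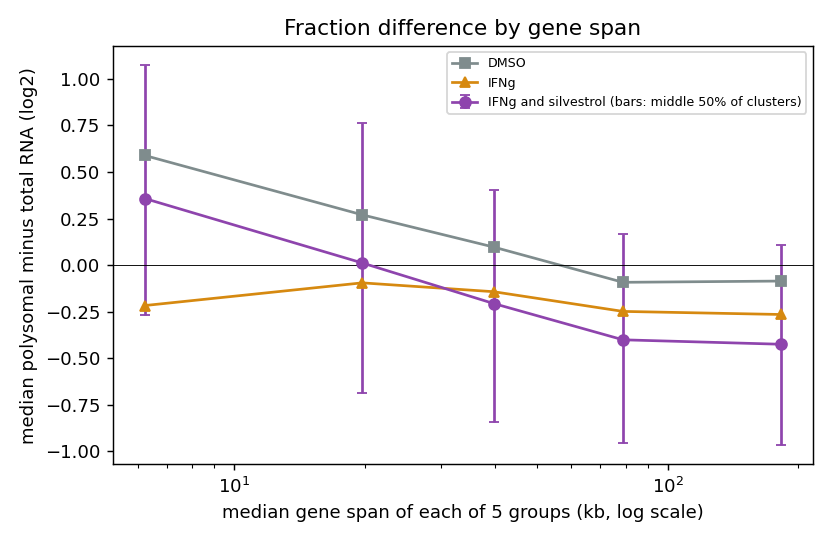
Median log2 difference between polysomal and total RNA (vertical axis) in 5 groups of bright protein-coding clusters by gene span (horizontal axis, kb, log scale) for the 3 treatments; bars show the middle 50% of clusters under IFNg and silvestrol. The silvestrol medians fall from 0.36 to -0.42 and the DMSO medians from 0.59 to -0.09, whereas the IFNg medians stay between -0.26 and -0.09.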

How the data were processed

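Per the labels' protocols, RNA was extracted with Trizol, labelled with biotin and hybridised to Affymetrix arrays. The deposited values are linear intensities, 1 for each transcript cluster and array. The labels name neither software nor a background or scaling step for them, and no detection calls accompany them. Arrays were grouped by title. Log2 was taken with no pseudocount or filter. Every array entered a limma 3.58.1 fit (R 4.3.3) of 6 group means, with 6 residual and 6.72 prior degrees of freedom. P-values were adjusted by Benjamini-Hochberg over all 65535 clusters and called below 0.05. The number of arrays limits the precision. Interactions were contrasts of the same fit, which was tested on simulated data.

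Symbols came from GEO's platform annotation, updated through Entrez identifiers to RefSeq (10777 clusters matched), and 48986 clusters had none. Named genes are the 10 largest differences in each direction among bright, called, non-overlapping clusters with 1 symbol. The comparison, members and lists were chosen with earlier results of these data known. The list of 7 nuclear or noncoding genes had no measured member. Alternatives were blocks, other scalings and filters, an intensity trend, an added 16, a 1.5-fold threshold and leaving out each array. Figures used matplotlib 3.10.9.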

Additional observations from a re-analysis of the deposited data

Results flagged for a closer look

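The polysomal minus total difference under IFNg and silvestrol was higher than under IFNg alone, by the interaction test in limma, for 12 clusters. The excess was 5.19 on the log2 scale for RMRP. The other 11 clusters have no symbol in the annotation used. It was 5.91 for TC0100015705.hg.1, 5.75 for TC0700007850.hg.1, 5.38 for TC0600011226.hg.1, 5.08 for TC0600007383.hg.1, 4.96 for TC0600011137.hg.1 and 4.46 for TC0600007281.hg.1. It was 4.07 for TC0600011187.hg.1, 4.04 for TC0300008350.hg.1, 3.93 for TC0300006637.hg.1, 3.61 for TC0700012732.hg.1 and 3.55 for TC0600011804.hg.1. As an example, TC0100015705.hg.1 had mean levels of 12.18 in total and 13.70 in polysomal RNA under silvestrol, 11.53 and 7.14 under IFNg, and 10.09 and 11.93 under DMSO. Polysomal means under IFNg lay below 7, where values may be near background, for TC0600011226.hg.1 (5.23), RMRP (5.49), TC0600007383.hg.1 (6.90), TC0600011137.hg.1 (4.70), TC0300008350.hg.1 (5.15) and TC0600011804.hg.1 (5.52), so the size of their excess is uncertain. With 16 added to each intensity, 0 of the interactions passed. All 12 were among the clusters called lower in polysomal RNA under IFNg alone, and 0 passed the interaction against DMSO. Groups of 2 arrays are too small for a test of outlying arrays.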

How the results depend on the processing

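Counts of clusters higher and lower in polysomal RNA under silvestrol moved by over 1.5 times with a fit of only the 4 arrays compared (0 and 0, also among bright clusters). They also moved with an intensity trend in robust variances (266 lower; 158 and 196 among bright clusters), with centring on bright clusters (577 higher; 398 among bright clusters) and with a fit of bright clusters only (540 and 796). Leaving out 1 array gave 0 to 344 higher and 0 to 465 lower, and 0 to 263 and 0 to 357 among bright clusters. The higher interaction against IFNg held 20 clusters with bright clusters only and 0 with 16 added, and 0 to 28 with 1 array left out, when the lower one held 0 to 1. The lower interaction against DMSO held 1 cluster with the replicate block, the random block, the trend, quantile normalization, centring on bright clusters and the filter at the median intensity, and 0 to 2 with 1 array left out; the higher one held 0 throughout.

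The median of clusters raised by IFNg turned from -0.07 to 0.046 with quantile normalization, 0.085 with centring on bright clusters, 0.0043 with bright clusters only and 0.0042 with 16 added, and lay between -0.23 and 0.18 with 1 array left out. It was above 0 in these cases: 0.083 without the first total DMSO or the second total IFNg array, 0.030 without either polysomal IFNg array, 0.18 without the second total and 0.13 without the first polysomal silvestrol array. For clusters higher in DMSO it was 1.86 with quantile normalization and 1.78 with centring on bright clusters, and 0.055 to 1.76 with 1 array left out. For clusters lower in DMSO it was -1.66 with only the arrays compared, -1.64 with the trend, -1.65 with median centring, -1.56 with quantile normalization, -1.41 with centring on bright clusters, -1.27 with bright clusters only, -1.57 with the filter at the median, -1.53 with 16 added, and -1.68 to -1.42 with 1 array left out. For clusters higher in IFNg it was 1.16 with the replicate block, 2.08 with only the arrays compared, 0.51 with the trend, 1.20 with quantile normalization, 0.54 with centring on bright clusters, 1.53 with bright clusters only, 1.45 with the filter at the median, 0.71 with 16 added, and 0.14 to 1.59 with 1 array left out. For clusters lower in IFNg it was -1.13 with only the arrays compared, -0.73 with 16 added, and -0.96 to -0.79 with 1 array left out. These sets were chosen again under each setting, and the cause of the moves was not tested.

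With the replicate block 383 clusters were higher and 475 lower. The labels do not say that equal numbers pair the samples. Deviations of same-numbered total and polysomal arrays correlated with r = 0.113 under silvestrol, 0.00747 under IFNg and 0.0346 under DMSO over all clusters, and with 0.320, 0.0785 and 0.249 over bright ones, and there are only 2 numbers. The median for clusters higher in DMSO could not be computed with only the arrays compared or without the second polysomal DMSO array, where no cluster was called. With 1 array left in a group, that array is assumed to vary like the others.

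The limits are those of 2 arrays a group and of values without detection calls. Median standard errors of 0.31 leave small shifts undetected, and dim clusters are not separated from background. Silvestrol without IFNg was not measured, so its part in a difference from DMSO cannot be told apart from that of IFNg.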
